A study of Mus musculus with 18 samples.

Results

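A single ChIP-seq library made with an Hnf4alpha antibody in induced hepatocyte-like (iHep) cells was set against the peak lists of 8 domain-swapped Foxa proteins. It is the library titled iHep_4a3_DA1, and its members are all 698 peaks of the list deposited for it, of 60701 peaks in the 9 lists used here. Peaks separated by a gap of at most 1 kb were joined, which gave 464 clusters. The values of the Foxa lists took no part in choosing these members.

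The cells of all libraries were C57BL/6 mouse embryonic fibroblasts from embryos of 13.5 days post coitum that had been infected with Hnf4alpha and a Foxa construct. The labels of the Hnf4alpha-antibody library conflict: its title begins like those of the Foxa3 constructs, whereas its infection label names Foxa1 with Hnf4alpha and no exchanged domain. It was therefore placed in no Foxa class, and which Foxa protein these cells received was not determined here. The antibody label was not checked against a binding motif either, because no mm9 sequence was used here. The 8 Foxa libraries carry 1 construct each. Foxa1-N3 and Foxa2-N3 denote Foxa1 and Foxa2 with the N-terminal domain of Foxa3, and Foxa3-C1 and Foxa3-C2 denote Foxa3 with the C-terminal domain of Foxa1 and of Foxa2. These 4 were mapped with a Foxa3 antibody. Foxa1-C3 and Foxa2-C3 denote Foxa1 and Foxa2 with the C-terminal domain of Foxa3, and Foxa3-N1 and Foxa3-N2 denote Foxa3 with the N-terminal domain of Foxa1 and of Foxa2. These were mapped with an antibody to Foxa1 (Foxa1-C3, Foxa3-N1) or Foxa2 (Foxa2-C3, Foxa3-N2). The antibody and the place of the Foxa3 terminal domain thus changed together and cannot be told apart. Each group is 1 library with no replicate, each ChIP library has an input whose reads were not analysed here, and the depth is unknown because the files list peaks and not reads.

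Hnf4alpha is a nuclear receptor that binds DNA as a homodimer and drives much of the gene expression of hepatocytes. Foxa1, Foxa2 and Foxa3 are forkhead proteins that bind DNA through a shared winged-helix domain and can open closed chromatin. In adult liver Hnf4alpha and Foxa proteins are known to occupy many of the same enhancers, and forced expression of the pair turns fibroblasts into iHep cells. Positions below are on mm9 and count from 1. No cluster was given a gene, since the gene table used here is on GRCm38 and the peaks are on mm9.

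The Hnf4alpha-antibody library gave short, narrow and crowded peaks. Its peaks had a median width of 115 bp (quartiles 91.3 and 163 bp) and ran from 83 to 1505 bp, and 96 of them (13.8%) had the narrowest width. In total 582 peaks (83.4%) were under 200 bp wide, against 0 in every Foxa list, whose narrowest peaks measured 242 to 325 bp. The narrowest width differed between all 9 lists, so widths are not comparable between lists beyond what the peak caller and each library's fragments set. The authors' score, which is of an unstated kind, had a median of 9.23 and a highest value of 30.3. It is used here to rank peaks within a list, except in 1 alternative that cuts all Foxa lists at their pooled median score of 19.2. That cut compares scores between lists and kept as few as 183 peaks of a list. Of the 464 clusters 351 held 1 peak, 66 held 2, 21 held 3 and 26 held 4 or more. The 113 clusters of at least 2 peaks made up 24.4% of the clusters (95% Wilson interval 20.7 to 28.5%) and held 347 peaks. In the Foxa lists, joined the same way, such clusters made up at most 4.64%, in Foxa3-N2. Within the multi-peak clusters the median gap between neighbouring peaks was 199.5 bp, and their median span was 825 bp with a maximum of 6571 bp. All intervals here cover counting error only.

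The peaks were also spread unevenly over the chromosomes. Chromosome 11 held 10.7% of the Hnf4alpha-antibody peaks and 10.8% of its clusters, against 5.80% of the pooled Foxa peaks. Chromosome 5 held 8.74% of its peaks against 5.63% of the Foxa peaks. Chromosome 17 held 6.45% against 3.70%, and chromosome 19 held 5.44% against 2.99%. Chromosome 18 was at the other end, with 6 peaks (0.860%) against 3.69% of the Foxa peaks. On chromosome 19 the excess was smaller among clusters, since its share of them was 3.66%, still above 2.99%. On chromosome 11 the shares of peaks and of clusters were alike.

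Clusters with Foxa binding were the minority. A peak of at least 1 Foxa list met 203 of the 464 clusters by 1 bp or more (43.8%; 39.3 to 48.3%), and 261 clusters met none. Seen from the Foxa side the overlap was small: merging the 8 lists gave 24999 regions, of which 222 (0.888%) met a cluster, and of the 60003 Foxa peaks 523 did (0.872%). For scale, clusters of a Foxa list made the same way met a peak of the other 7 Foxa lists in 65.9% (Foxa3-N2) to 99.1% (Foxa1-N3) of cases. Foxa peaks were wider, with medians of 307 to 462 bp by list against 115 bp here, so their clusters offered more length to meet a peak. A further 70 Hnf4alpha-antibody clusters had a Foxa peak within 1 kb. Of the 261 clusters without a Foxa peak 63.6% (57.6 to 69.2%) lay within 10 kb of one, and the median distance from them to the nearest Foxa peak was 4839 bp. The share of clusters with a Foxa peak rested on long lists: it was 10.99% (51 clusters) when every list was cut to its 956 strongest peaks (as many as the shortest list has), and 25.9% with Foxa peaks above the pooled median score of 19.2. It was 33.2% without Foxa3-C1, and 25.4% when the midpoint of the Foxa peak had to lie in the cluster, an alternative chosen after seeing the data.

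Clusters with a Foxa peak held more peaks and had higher scores than clusters without one. The share with a Foxa peak was 37.9% of the clusters of 1 peak (33.0 to 43.1%) and 47.0% of the clusters of 2 (35.4 to 58.8%). It was 66.7% of the clusters of 3 (45.4 to 82.8%) and 96.2% of the clusters of 4 or more (25 of 26; 81.1 to 99.3%). The 25 include a cluster on chromosome 19 (9062867 to 9065891) met only in a gap between joined peaks. Clusters of 2 or more peaks also covered longer spans (median 825 bp), and the part of span in these shares was not tested. By top score, the share was 29.3% in the lowest of 4 bins of 116 clusters, 33.6% in the next, 40.5% in the one above and 71.6% in the highest (62.8 to 79.0%). The intervals of the 3 lower bins overlapped, and that of the highest stood clear of them. The median top score was 11.01 in clusters with a Foxa peak (95% order-statistic interval of the median 9.85 to 11.97) and 8.70 in clusters without (8.52 to 9.16). This difference of 2.31 was 1.15 when Foxa peaks within 1 kb also counted. Among clusters of 1 peak the medians were 9.85 with a Foxa peak (9.19 to 10.7) and 8.52 without (8.45 to 8.70). In 4 score bins of the clusters of 1 peak, lowest to highest, the share with a Foxa peak was 33.0%, 22.7%, 37.9% and 58.0%. The intervals of the third bin (28.45 to 48.43%) and the highest (47.52 to 67.72%) overlapped.

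**Figure D1:**
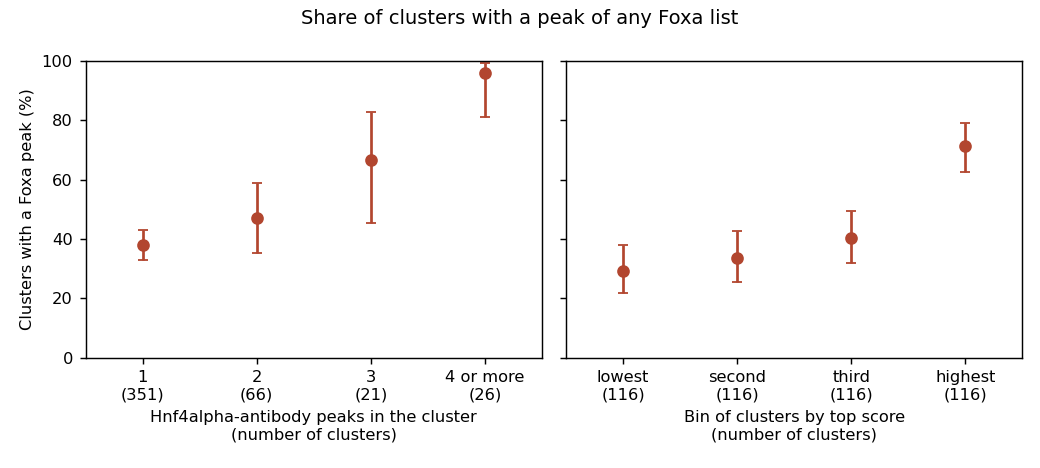
Percent of the Hnf4alpha-antibody clusters that a peak of any Foxa list met, by the number of peaks in the cluster (left) and by bin of top score, 4 bins of 116 clusters (right). Points are shares, bars are 95% Wilson intervals, and numbers of clusters stand in brackets; the share is 37.9% for 1 peak and 96.2% for 4 or more, and 71.6% in the highest score bin.

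Width differed less. The widest peak of a cluster had a median of 126 bp (117 to 137 bp) with a Foxa peak and 108 bp (103 to 115 bp) without. For clusters of 1 peak the medians were 108 bp (100 to 119 bp) and 106 bp (100 to 112 bp), with intervals that overlap almost fully. Of the 32 clusters whose widest peak reached 300 bp, 27 carried a Foxa peak (84.4%; 68.3 to 93.1%), against 58 of the 157 whose widest peak was under 100 bp (36.9%; 29.8 to 44.7%). Among clusters of 1 peak the share was 48.3% at 200 bp or wider (14 of 29, 31.4 to 65.6%). It was 36.7% for those under 100 bp (54 of 147, 29.4 to 44.8%). Clusters are parts of 1 library and not replicates, so these medians and shares carry no test between conditions.

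The constructs differed widely in how many clusters they met. Foxa3-C1 met 154 of the 464 clusters (33.2%; 29.1 to 37.6%), with 2.22% of its 7533 peaks. Foxa3-N2, the longest list with 16543 peaks, met 98 clusters (21.1%; 17.7 to 25.1%) with 0.604% of its peaks, and Foxa3-C2 met 86 (18.5%; 15.3 to 22.3%) with 2.56% of 3594 peaks. Foxa2-N3 met 61 clusters (13.2%) with 1.2% of 5230 peaks, and Foxa2-C3 met 54 (11.6%) with 0.401% of 13715 peaks. Foxa3-N1 met 25 clusters (5.39%) with 0.328% of 7625 peaks. Foxa1-C3 met 11 (2.37%) with 0.229% of 4807 peaks, and Foxa1-N3 met 10 (2.155%) with 1.05% of 956 peaks. Foxa3-C1 and Foxa3-N1 have lists of nearly equal length and share the DNA-binding domain but neither terminal domain nor antibody, and Foxa3-C1 met 154 clusters while Foxa3-N1 met 25.

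At equal list length the 2 Foxa3 constructs with an exchanged C-terminal domain stood at the top together. The 956 strongest peaks met 32 clusters in both Foxa3-C1 and Foxa3-C2 (6.90%; 4.93 to 9.57%), and 24 of these clusters were common to both. Foxa2-N3 followed with 16 clusters (3.45%) and Foxa3-N2 with 13 (2.80%). Foxa1-N3 met 10 (2.155%) and Foxa2-C3 met 9 (1.94%), while Foxa3-N1 met 6 (1.29%) and Foxa1-C3 met 5 (1.08%). Foxa3-N2 thus had the second most clusters with full lists and stood behind 3 other constructs at equal length, and the intervals of neighbours in this order overlap.

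**Figure D2:**
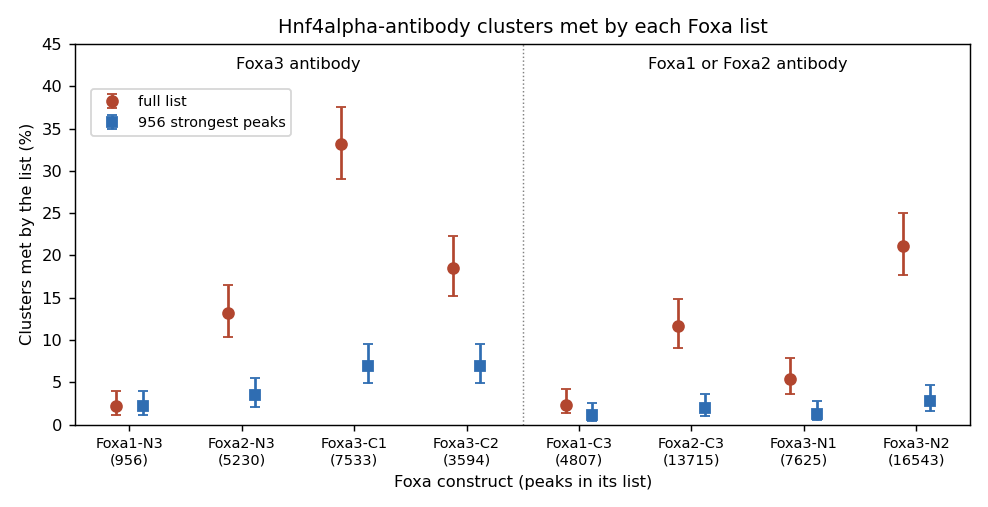
Percent of the 464 Hnf4alpha-antibody clusters met by each Foxa list, with the full list (circles) and with its 956 strongest peaks (squares); bars are 95% Wilson intervals and list lengths stand in brackets. Foxa3-C1 is highest with full lists at 33.2%, and Foxa3-C1 and Foxa3-C2 are both at 6.90% at equal length.

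The 4 constructs with the Foxa3 N-terminal domain, mapped with the Foxa3 antibody, had a larger part of their lists in the clusters than the 4 with the Foxa3 C-terminal domain, mapped with a Foxa1 or Foxa2 antibody. The percent of a list inside clusters averaged 1.76 ± 0.745% on the N-terminal side and 0.391 ± 0.159% on the C-terminal side (SD, n = 4 libraries each). Every value of the first set (1.05 to 2.56%) lay above every value of the second (0.229 to 0.604%), against 0.872% over all Foxa peaks, although the interval of Foxa1-N3 (0.569 to 1.92%) reached below the value of Foxa3-N2. The difference gave the smallest p that the 70 splits of 8 libraries allow (exact two-sided permutation p = 0.0286). After adjustment over 6 tests it was 0.171 (Benjamini-Hochberg adjusted permutation p). Only 1 grouping per measure can reach the smallest p, so no adjusted p here could fall below 0.05, and the adjustment decides nothing. The difference was 1.37 percentage points, and 0.897 without the 1 Mb windows that hold 10 or more of the library's peaks (exact permutation p = 0.0286). At equal list length the percent of clusters met was 4.85 ± 2.42% where the N-terminal domain was that of Foxa3 and 1.78 ± 0.775% where the C-terminal one was (SD, n = 4 each), and the sets overlapped (exact permutation p = 0.0571, adjusted p = 0.171). This difference of 3.07 percentage points was 1.05 without the dense windows (exact permutation p = 0.171). It was 1.19 with Foxa peaks above the pooled median score (exact permutation p = 0.286), where the equal length was 183 peaks per list and not 956. It was 5.08 with the Hnf4alpha-antibody peaks above their median score (exact permutation p = 0.0857) and 6.63 with full lists (exact permutation p = 0.486). The constructs also form 4 pairs that share the DNA-binding domain and the partner. Both measures were higher on the N-terminal side in 4 of 4 pairs, and a sign-flip over pairs, added after seeing the data, cannot give a p below 0.125, the value both had (exact two-sided).

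The DNA-binding domain and the partner protein separated the libraries less. Libraries whose construct had the DNA-binding domain of Foxa3 had 1.43 ± 1.12% of their lists inside clusters against 0.720 ± 0.478% where it came from Foxa1 or Foxa2 (SD, n = 4 each; exact permutation p = 0.314, adjusted p = 0.471). That difference of 0.707 percentage points was 0.330 without Foxa3-C2 and 1.07 without Foxa3-N1. Constructs made of Foxa2 and Foxa3 had 1.19 ± 0.973% and those made of Foxa1 and Foxa3 had 0.955 ± 0.917% (SD, n = 4 each; exact permutation p = 0.657, adjusted p = 0.657). At equal list length the DNA-binding domain gave 4.47 ± 2.87% of clusters met with Foxa3 and 2.155 ± 0.980% with Foxa1 or Foxa2 (n = 4 each; exact permutation p = 0.257, adjusted p = 0.471), and the partner gave 3.77 ± 2.17% with Foxa2 and 2.86 ± 2.73% with Foxa1 (n = 4 each; exact permutation p = 0.543, adjusted p = 0.651). The partner difference changed sign without Foxa3-C2, to -0.218 percentage points of the list and -0.126 percentage points of the clusters, and the first of these was -0.00446 without Foxa1-C3. Each library is a different construct, so these p-values measure the spread between constructs.

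Most clusters with Foxa binding were shared with few constructs, and most Foxa regions likewise lay in few lists. Of the 203 clusters 73 were met by 1 list, 52 by 2, 39 by 3 and 39 by 4 or more. All 8 lists met 3 of these clusters. Of the 24999 merged Foxa regions 11883 were found in 1 list, 5225 in 2, 2484 in 3 and 529 in all 8. The largest sets were 49 clusters met by Foxa3-C1 alone, 27 met by Foxa3-C1 and Foxa3-C2, 20 met by Foxa3-N2 alone, 17 met by Foxa2-N3, Foxa3-C1 and Foxa3-C2, and 11 met by Foxa2-C3 and Foxa3-N2. Foxa3-C1 met 81 of the 86 clusters of Foxa3-C2 (94.2%) and Foxa3-C2 met 81 of the 154 clusters of Foxa3-C1 (52.6%). Lists made with the Foxa3 antibody alone accounted for 103 clusters (50.7%; 43.9 to 57.5%), lists made with the Foxa1 or Foxa2 antibody alone for 39 (19.2%; 14.4 to 25.2%), and both kinds for 61. The first kind pools 17313 peaks and the second 42690, so the kind with fewer peaks met more clusters. Foxa1-N3, Foxa1-C3, Foxa2-N3 and Foxa3-N1 met 0 clusters that no other list met. Over their whole lists, joined the same way, 99.1%, 95.2%, 93.4% and 86.2% of their own clusters, in that order, met another Foxa list.

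The clusters did not concentrate on the Foxa regions that most constructs share. Of the regions found in 1 list 0.631% (0.504 to 0.790%) met a cluster. The share was 1.15% for regions of 2 lists and 1.49% (1.08 to 2.05%) for those of 3. It was 1.05% for 4 lists, 1.21% for 5, 0.818% for 6, 0.675% for 7 and 0.567% (0.193 to 1.65%; 3 of 529) for 8. Regions of all 8 lists were the widest, with a median of 697 bp against 369 bp for regions of 1 list, so they offered more length to meet a cluster. The intervals of regions in 4 to 8 lists overlap, and at these counts no order among them was detectable.

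**Figure D3:**
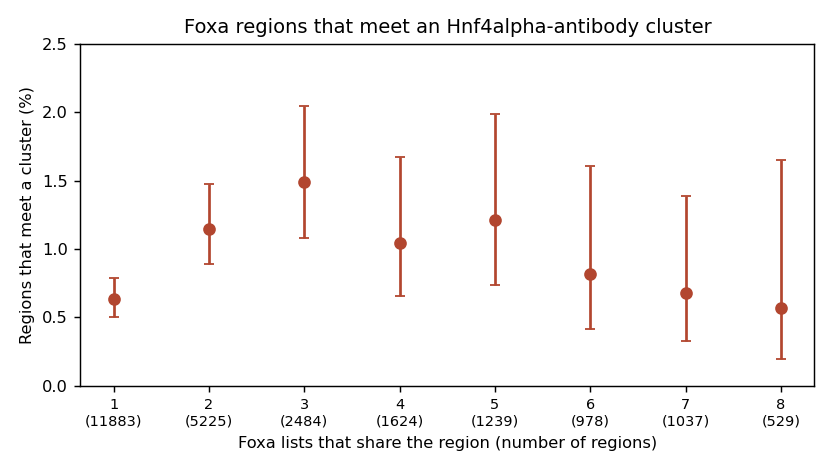
Percent of merged Foxa regions that met an Hnf4alpha-antibody cluster, by the number of Foxa lists in which the region was found; bars are 95% Wilson intervals and numbers of regions stand in brackets. The share is 1.49% for regions of 3 lists and 0.567% for regions of all 8.

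Foxa peaks that met a cluster were wider than the other peaks of their list in all 8 libraries. In the Foxa3-antibody libraries the median widths inside and outside clusters were 437 and 306 bp in Foxa1-N3, 522 and 406 bp in Foxa2-N3, 547 and 454 bp in Foxa3-C1, and 505 and 359 bp in Foxa3-C2. In the others they were 509 and 413 bp in Foxa1-C3, 530 and 462 bp in Foxa2-C3, 425 and 413 bp in Foxa3-N1, and 528 and 417 bp in Foxa3-N2. The mean difference was 96.5 ± 41.6 bp (SD, n = 8 libraries; exact two-sided sign-flip permutation p = 0.00781, the smallest that 8 libraries allow; adjusted p = 0.0156 over 2 tests). Foxa3-N1 had the smallest difference, 12 bp. The difference was 54.1 bp with Foxa peaks within 1 kb, 152 bp with Foxa peaks above the pooled median score and 162.5 bp at the length of the shortest list (exact sign-flip permutation p = 0.00781 each). When the midpoint of the Foxa peak had to lie in the cluster, the difference was 102 bp (exact sign-flip permutation p = 0.00781). Under the 1 bp rule a wider Foxa peak has more length with which to meet a cluster, whereas the midpoint setting uses 1 position per peak. The midpoint setting was chosen after seeing the data, and the cause of the width difference was not tested. The 8 libraries were compared with the same clusters and share many sites, so they are not fully independent. An excess of wide Foxa3-C1 and Foxa3-C2 peaks at these sites was known when the test was chosen.

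**Figure D4:**
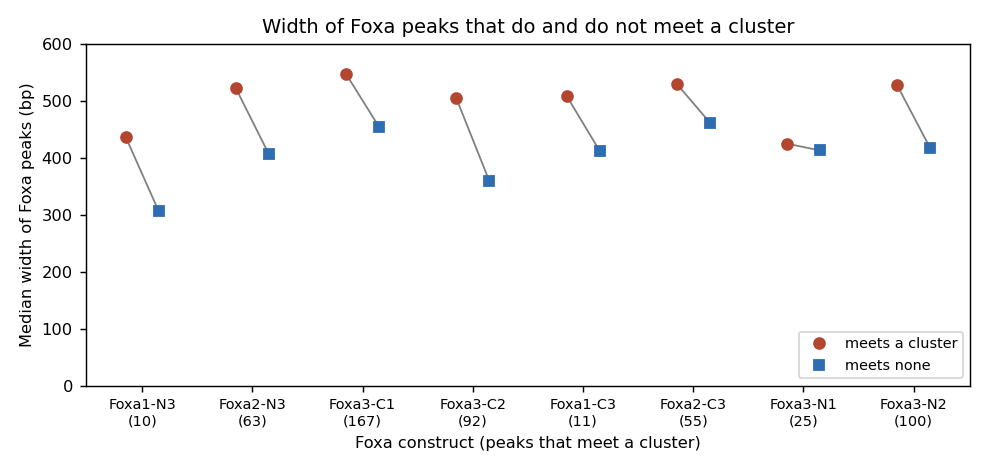
Median width in bp of the Foxa peaks that met an Hnf4alpha-antibody cluster (circles) and of those that met none (squares) in each Foxa library, with the number of peaks that met a cluster in brackets. The circle lies above the square in all 8 libraries, by 12 bp in Foxa3-N1 and by 146 bp in Foxa3-C2.

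Strength within the full Foxa lists showed no such common direction. Ranks were expressed as percentiles of a list, with 100 the strongest. The median rank inside clusters minus that outside averaged 4.75 ± 15.02 percentiles (SD, n = 8; exact sign-flip permutation p = 0.383, adjusted p = 0.383) and was positive in 6 of 8 libraries. Foxa1-C3 stood at 26.1 percentiles with 11 peaks inside, and Foxa1-N3 at -25.0 with 10 peaks inside. Without Foxa1-N3 the mean was 9.01 (exact sign-flip permutation p = 0.0313, adjusted p = 0.0313), and with Foxa peaks within 1 kb counted as inside it was -4.14. Among Foxa peaks above the pooled median score the mean was 22.8 (exact sign-flip permutation p = 0.00781, adjusted p = 0.00781).

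Pairs that met were described by the position of the library's peak in the Foxa peak. No expected distance was computed, so the distances do not show whether the library's peaks lay off the Foxa centres. In Foxa3-C1 174 of 228 meeting pairs (76.3%) had the Hnf4alpha-antibody peak wholly inside the Foxa peak, with a median distance of 151 bp between midpoints. In the other constructs the share wholly inside was 45.5% (Foxa1-N3, 11 pairs) to 72.7% (Foxa1-C3, 11 pairs), and the median midpoint distance was 107 bp (Foxa1-N3) to 199 bp (Foxa2-N3). In Foxa3-C1 38 peaks, and in Foxa3-C2 23 peaks, covered 2 or more of the library's peaks, with up to 6 under 1 Foxa peak.

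Counting gaps between joined peaks, a Foxa list met all 10 clusters with the most peaks. Foxa3-N2 met 8 of them, Foxa3-C1 7, Foxa3-C2 6, Foxa2-N3 5, Foxa2-C3 4, Foxa3-N1 2, Foxa1-C3 1 and Foxa1-N3 0. The most crowded lay on chromosome 10 (21713895 to 21720465; 13 peaks over 6571 bp) and had peaks of Foxa2-N3, Foxa3-C1 and Foxa3-C2. Its peaks were 88 to 935 bp wide with scores from 6.38 to 27.5, and 5 separate Foxa3-C1 peaks of 820 to 1335 bp lay along it, the strongest of rank 1412. The second lay on chromosome 17 (34254848 to 34259014; 11 peaks), where Foxa3-C1 ranked 2583, Foxa3-C2 ranked 2323 of 3594, and Foxa3-N2 ranked 15578 of 16543. The third, on chromosome 19 (5797669 to 5803094; 10 peaks), was met by Foxa2-N3 (best rank 1398), Foxa3-C1 (495) and Foxa3-C2 (274).

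A cluster of 6 peaks on the same chromosome (5841526 to 5845463), with the library's widest peak of 1505 bp, lay within single wide peaks of Foxa3-C1 (6164 bp) and Foxa3-C2 (5032 bp). Chromosome 19 carries Malat1 and Neat1, neighbouring genes of abundant nuclear non-coding RNAs, in the RefSeq gene table on GRCm38. Whether these clusters lie on them was not determined here. Other crowded clusters lay on chromosome 5 (143579803 to 143583671; 8 peaks, 6 lists) and chromosome 3 (96361523 to 96363739; 6 peaks, 5 lists). One on chromosome 2 (152653233 to 152656265, 8 peaks) was met within its span by all 4 constructs with the Foxa3 C-terminal domain. It was met by 0 of the 4 with the Foxa3 N-terminal domain. The Foxa1-C3 peak there (152653521 to 152653868) lay in a gap between joined peaks and met no peak of the library. The remaining 3 lay on chromosomes 19, 17 and 10. Foxa3-N2 alone met those on chromosome 19 (9062867 to 9065891) and chromosome 17 (84584372 to 84587255). Foxa3-C1 and Foxa3-N2 met that on chromosome 10 (24315332 to 24317460). At the chromosome 19 cluster of these 3, the Foxa3-N2 peak (rank 16360 of 16543) lay in a gap between joined peaks and met no peak of the library.

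The 10 clusters with the highest top score carried Foxa binding as well, and Foxa3-C1 met 9 of them. Foxa3-C2 met 7, Foxa3-N2 6, Foxa2-N3 5, Foxa1-N3 and Foxa2-C3 1 each, and Foxa1-C3 and Foxa3-N1 0. The first, with a score of 30.3, lay on chromosome 11 (101505900 to 101507426; 5 peaks). Its strongest Foxa peaks ranked 36 (Foxa3-C2), 54 (Foxa3-C1), 147 (Foxa2-N3), 561 (Foxa1-N3) and 15698 (Foxa3-N2) in their lists. The second, with a score of 28.8, lay beside it (101502891 to 101504577; 4 peaks), with ranks of 12 (Foxa3-C1), 27 (Foxa3-C2), 83 (Foxa2-N3) and 15105 (Foxa3-N2). At both sites the 3 Foxa3-antibody constructs with longer lists had strong peaks, Foxa3-N2 a weak one, and Foxa1-C3, Foxa2-C3 and Foxa3-N1 none. The third, on chromosome 5 (143667847 to 143668383; 1 peak of 537 bp, score 27.9), was met by Foxa3-C1 and Foxa3-C2. A single peak on chromosome 11 (69571772 to 69572123; score 26.8) was met by 3 lists, and one on chromosome 15 (80085985 to 80086106; score 25.2) by Foxa3-C1 alone. The cluster of rank 9 by score, on chromosome 10 (59413741 to 59414571), was the 1 of the 10 without Foxa3-C1 and was met by Foxa3-N2 alone.

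The 5 clusters met by most constructs, with ties settled by higher score, differed in score and crowding. Of the 3 met by all 8 lists, each was a single peak of 83 to 174 bp. The one on chromosome 17 (35848694 to 35848867; score 17.1) ranked 36 of the 464 clusters by score and lay in a Foxa peak that was among the 5 strongest of every list except Foxa3-N2, where it ranked 310. It held the strongest peak inside any cluster in all lists but Foxa3-N2, whose strongest such peak ranked 34 and lay on chromosome 9 (62938875 to 62939794). The second lay on chromosome 17 (44376377 to 44376478; score 8.70) and ranked 271, and the third on chromosome 5 (99665776 to 99665858; score 7.11) and ranked 405. At these 2 weak clusters Foxa3-N2 peaks ranked 108 and 145 of 16543 and Foxa2-C3 peaks 235 and 108 of 13715, whereas Foxa1-N3 peaks ranked 659 and 652 of 956. The other 2 were the highest-scoring of the 4 clusters met by 7 lists, so their high score came from the choice. Both were met by all lists except Foxa1-N3. One held 5 peaks on chromosome 3 (90417185 to 90420167, score 18.9) and ranked 23. The next was a single peak on chromosome 5 (138612066 to 138612187, score 18.8) and ranked 24. At the first of these Foxa3-N2 ranked 564 and Foxa2-C3 ranked 819, and at the second they ranked 1308 and 2525.

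**Figure D5:**
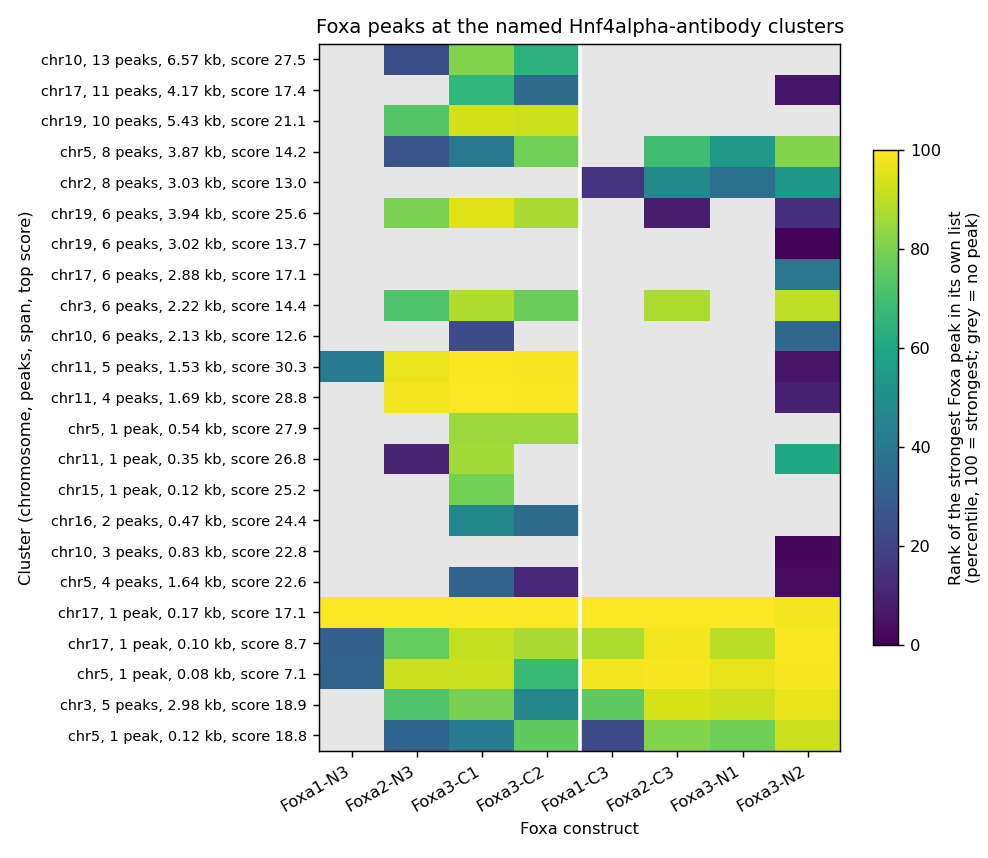
Rank of the strongest Foxa peak at each named Hnf4alpha-antibody cluster, as percentile of that construct's own list (100 is strongest, grey is no peak); rows are the 10 clusters with the most peaks, the further ones among the 10 highest scores, and the 5 met by most lists. The highest-scoring chromosome 11 clusters are strong in Foxa2-N3, Foxa3-C1 and Foxa3-C2 and weak in Foxa3-N2, while the bottom rows are filled across 7 or 8 constructs.

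None of the 12 highest-scoring clusters lacked a Foxa peak. The highest-scoring cluster without one, a single peak on chromosome 17 (29169666 to 29169791; score 21.5), ranked 13 by score, and its nearest Foxa peak was 13152 bp away. Those next in score lay on chromosome 10 (127930542 to 127930850; score 18.8; nearest Foxa peak 55087 bp away), chromosome 2 (128792763 to 128793679; score 17.1; 16910 bp) and chromosome 5 (123590905 to 123591529; score 16.4; 26745 bp). The fifth, on chromosome 7 (54175453 to 54175535; score 15.8), lay 328 bp from a Foxa peak.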

How the data were processed

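ChIP-seq peak lists of 9 libraries were used; 9 input libraries were not analysed here. Per the submitters' processing notes, mm9 was the build and the tools were MACS2 2.1.0, BWA 0.6.2 and bedtools 2.16.2. Caller settings and any use of the input: not given in the sources used here. Every deposited list, made by the authors per library, gives chromosome, start, end, name and a score of unstated kind, all above 5. Depth is unknown, so intervals count clusters or peaks only.

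Peaks of the Hnf4alpha-antibody list were joined over gaps of at most 1000 bp, and a cluster counted as met with an overlap of 1 bp. Clusters and overlap counts were the same with bedtools 2.31.1 in all 8 lists, and the routines were tested on simulated data. Libraries were compared by exact permutation (70 splits) or sign-flip (256 patterns), with Benjamini-Hochberg adjustment over 6 and 2 tests. Scripts ran on Python 3.11.15 with scipy 1.17.1, pandas 2.3.3 and numpy 2.4.6, and matplotlib 3.10.9 drew the figures.

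The members and lists were chosen with earlier results of these data known. Named clusters were the 10 with the most peaks, the 10 with the highest score, the 5 highest without a Foxa peak and the 5 met by most lists. Ties in the number of lists were settled by higher score. Gene lists were planned for an annotation on mm9 and were not used here.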

Additional observations from a re-analysis of the deposited data

Results flagged for a closer look

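Among 35 groups of 4 or 8 libraries checked, 2 held a library far from the others; chance alone marks about 1 group in 20. With full lists Foxa3-C1 met 33.2% of the Hnf4alpha-antibody clusters, the highest value among the 4 constructs made of Foxa1 and Foxa3, where the others met 2.155 to 5.39%. Among the 4 constructs with the Foxa3 DNA-binding domain, Foxa3-N2 had a median rank inside clusters 14.2 percentiles above that outside, against 3.59 to 4.14 percentiles in the others. At equal list length Foxa3-C1 met 6.90% of the clusters, as did Foxa3-C2.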

How the results depend on the processing

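The share of clusters with a Foxa peak (43.8%) was 58.8% with Foxa peaks within 1 kb, 53.9% for Hnf4alpha-antibody peaks above their median score, 25.9% with Foxa peaks above the pooled median score, 10.99% at the length of the shortest list, 25.4% with midpoints, and 33.2 to 43.8% leaving out each construct in turn, lowest without Foxa3-C1. The widest-peak difference (18 bp) was 47 bp at the length of the shortest list. The rank difference (4.75 percentiles) was -4.14 with Foxa peaks within 1 kb, 22.8 with Foxa peaks above the pooled median score (exact sign-flip permutation p = 0.00781), and 1.70 to 9.01 leaving out each construct, highest without Foxa1-N3. Leaving out each construct gave partner differences of -0.218 to 0.658 percentage points of the list (-0.00446 without Foxa1-C3) and -0.126 to 2.26 points of the clusters at equal length. The cause of these changes was not tested. Leaving out each construct, the difference by Foxa3 terminal domain and antibody was 1.10 to 1.60 percentage points of the list (unadjusted exact permutation p = 0.0286 to 0.0571) and 2.39 to 3.97 points of the clusters at equal length (p = 0.0286 to 0.143), and that by DNA-binding domain 0.330 to 1.07 and 1.51 to 3.38 points. The width difference kept its sign and its side of the threshold under all 17 alternatives run, at 54.1 to 162.5 bp. Without joining, no cluster has 2 peaks, so that share has no value. Replicate numbers pair no libraries, since every group is 1 library. Depth, and with it weak binding that no list holds, is not recorded in the peak lists.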

Other observations

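In 9 windows of 1 Mb with at least 10 peaks of the Hnf4alpha-antibody library each, 33 of 37 clusters carried a Foxa peak (89.2%; 75.3 to 95.7%), against 170 of 427 outside them (39.8%; 35.3 to 44.5%). The window from 23 to 24 Mb of chromosome 13 differed from the others in that its 12 peaks fell into 11 separate clusters, all met by a Foxa list. Foxa3-C1 had 30 peaks in it, Foxa3-N2 23, Foxa3-C2 19, Foxa2-N3 12, Foxa2-C3 11, Foxa3-N1 3, Foxa1-C3 1 and Foxa1-N3 0. Chromosome 13 carries the larger set of replication-dependent histone genes in the RefSeq gene table; whether the window holds them was not determined here. In the window from 34 to 35 Mb of chromosome 17 the reverse was seen: 11 peaks formed 1 cluster. The windows were defined after the data were seen.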
